A study of Mus musculus with 17 samples.

Results

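Described here are the 137 genes whose normalized expression was lowest at 12 h in both *Nanog* KO and control embryonic stem (ES) cells during the first day after 2i and LIF were replaced by serum. They were chosen by a rule on group means, taken as log2(CPM + 1), where CPM is the authors' read count of a gene relative to the scaled size of its library. In each genotype the 12 h value had to lie at least 0.25 below the 0 h value and at least 0.25 below the 24 h value. The mean at 0 h had to reach 5 CPM in both genotypes, and names that begin with Hox, Slc, Rpl or Rps were left out. Of the 15470 rows of the table, 10432 genes reached 5 CPM at 0 h in both genotypes and 142 met all 4 differences, which is 1.36% of them. Leaving out 5 by name gave the 137 genes, of which 20 have only a predicted or clone name or (3 of them) no symbol. At the edge of the rule, the shallowest of the 4 differences was -0.252 for *Ptges3* and -0.251 for *Vill* just inside, and -0.247 for *Aldh9a1*, -0.247 for *Zranb2* and -0.247 for *Car13* just outside.

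*Nanog* KO cells were of the line BT12, and control cells of its wild-type parental line E14Tg2a, so that each genotype was 1 line. At 0 h both grew on inactivated mouse embryonic fibroblasts in serum-free medium with knockout serum replacement, LIF and 2i, a pair of inhibitors (CHIR-99021 against GSK3 and PD0325901 against MEK) that hold ES cells in the naïve state. Serum was then added and 2i and LIF were withdrawn, and RNA was taken at 0, 12 and 24 h. Each group had 3 libraries, apart from control cells at 0 h with 2 (replicates 2 and 3), at depths of 8775372 to 33766086 reads per library. *Nanog* stood at 12.5 to 34.6 CPM in *Nanog* KO libraries, against 271 to 412 CPM in control libraries. No source says that replicates were separate cultures, so the p-values measure the spread between these libraries, which may be technical. The line and the genotype cannot be told apart.

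The largest known group among the members makes cholesterol. Cells build sterols from acetyl-CoA through mevalonate, farnesyl diphosphate, squalene and lanosterol, and the genes of these steps are switched on together by the transcription factor SREBP2. When sterols are plentiful, INSIG proteins hold the SREBP precursor in the endoplasmic reticulum and the genes fall silent together. The promoters of such genes are known for combining sterol regulatory elements with sites for NF-Y, which binds CCAAT boxes, and SP1, which binds GC boxes. This is background and was not measured here.

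The promoters of 4 sterol members are shown. Of the members in the sterol and fatty acid list described below, *Insig1* and *Idi1* had the deepest minima among those with a window. *Cyp51* had a shallower minimum than *Lss*, and than *Tm7sf2* outside that list, neither of which is shown. *Hmgcs1* was chosen after the search because it held all 3 motifs. Sequences are from RefSeq on GRCm38.p6 and run from 250 bases before to 50 bases after the annotated start, 5′ to 3′ on the strand of the gene. Capitals mark 3 motifs on either strand, namely the CCAAT box, the GC box (GGGCGG) and the core of the sterol regulatory element (TCACNCCAC). The windows are chr13:119690101-119690400 on the plus strand for *Hmgcs1*, chr5:28071162-28071461 on the plus strand for *Insig1*, chr13:8885356-8885655 on the plus strand for *Idi1* and chr5:4104648-4104947 on the minus strand for *Cyp51*.
Hmgcs1: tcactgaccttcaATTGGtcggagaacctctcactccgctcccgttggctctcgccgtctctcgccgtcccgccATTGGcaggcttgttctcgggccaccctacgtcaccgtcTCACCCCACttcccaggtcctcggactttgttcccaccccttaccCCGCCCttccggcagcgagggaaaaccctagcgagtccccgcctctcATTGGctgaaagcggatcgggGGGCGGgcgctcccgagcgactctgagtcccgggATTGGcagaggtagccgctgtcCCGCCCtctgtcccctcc
Insig1: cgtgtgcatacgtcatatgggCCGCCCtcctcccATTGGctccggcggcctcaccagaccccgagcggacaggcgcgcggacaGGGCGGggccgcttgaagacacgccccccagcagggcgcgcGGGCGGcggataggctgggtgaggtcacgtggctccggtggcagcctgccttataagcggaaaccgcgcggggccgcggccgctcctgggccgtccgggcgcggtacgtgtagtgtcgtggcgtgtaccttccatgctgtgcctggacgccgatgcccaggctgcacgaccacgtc
Idi1: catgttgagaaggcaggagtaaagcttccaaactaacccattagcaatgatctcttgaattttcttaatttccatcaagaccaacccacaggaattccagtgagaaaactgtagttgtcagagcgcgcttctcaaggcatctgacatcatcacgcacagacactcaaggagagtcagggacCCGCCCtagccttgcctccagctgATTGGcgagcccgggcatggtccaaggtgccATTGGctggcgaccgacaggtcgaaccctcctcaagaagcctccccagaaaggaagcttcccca
Cyp51: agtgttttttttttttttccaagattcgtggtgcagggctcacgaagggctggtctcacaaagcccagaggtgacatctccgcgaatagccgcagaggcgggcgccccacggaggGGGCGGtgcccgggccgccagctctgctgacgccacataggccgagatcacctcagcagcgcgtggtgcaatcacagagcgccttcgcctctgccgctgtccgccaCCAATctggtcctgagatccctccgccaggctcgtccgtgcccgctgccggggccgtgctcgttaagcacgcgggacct
The *Hmgcs1* window held 4 CCAAT boxes, 3 GC boxes and 1 match to the sterol regulatory element core. *Insig1* had 1 CCAAT box and 3 GC boxes, *Idi1* had 2 CCAAT boxes and 1 GC box, and *Cyp51* had 1 CCAAT box and 1 GC box.

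Promoter windows were found for 93 of the 137 members, matched by symbol, and for 9 of the 16 sterol and fatty acid members described below. Of these 9, 8 held a CCAAT box (88.9%), against 39.3% of the 7780 genes with 5 CPM at 0 h and a window. All 9 held a GC box, against 69.4% of the 7780. A CCAAT box together with a GC box stood in 8 of the 9 sterol windows, in 24 of the 84 windows of other members (28.6%) and in 27.0% of the 7780. The sterol regulatory element core, which was added after the members were known, was found in 1 of the 9 and in 1.03% of the 7780. Over all 93 member windows the ETS core CCGGAAG stood in 19.4% against 20.8% of the 7780, the hypoxia response core ACGTG in 28.0% against 27.2% and the TATA box TATAAA in 5.38% against 6.16%. Both strands were searched, ACGTG is also part of the E-box CACGTG, and a match is only a match of letters.

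A list of 31 genes of sterol and fatty acid synthesis held 16 members, among them *Hmgcs1*, *Mvd*, *Idi1*, *Fdps*, *Fdft1*, *Sqle*, *Lss*, *Cyp51*, *Msmo1*, *Nsdhl*, *Dhcr7*, *Insig1*, *Stard4*, *Scd1* and *Scd2*. Of the 30 genes of the list with 5 CPM at 0 h in both genotypes these are 53.3%, whereas the members are 1.31% of the 10432 genes. Each of the 16 had all 12 h libraries below all 0 h and 24 h libraries in both genotypes, as had 3.73% of the 10432 genes. At 12 h they stood at 29.4% to 60.4% of their 0 h mean (median 46.0%) in *Nanog* KO cells and at 36.2% to 63.0% (median 48.0%) in controls. At 24 h they had come back to 49.9% to 90.9% (median 71.7%) in *Nanog* KO cells and to 46.9% to 81.8% (median 69.2%) in controls. These values chose the genes and are given as a description. Each of the 16 remained a member whichever of the 17 libraries was left out. *Nanog* KO replicate 3 at 24 h was the lowest of its group for most of them.

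*Hmgcs1* joins acetyl groups into HMG-CoA, the entry to the pathway. It had 431, 439 and 448 CPM at 0 h, 192, 193 and 176 CPM at 12 h and 281, 261 and 211 CPM at 24 h in *Nanog* KO libraries. Control libraries had 581 and 560.3 CPM at 0 h, 234, 239.8 and 232 CPM at 12 h and 269, 321 and 333 CPM at 24 h. The 3 groups of each genotype did not overlap, and the 24 h libraries lay between those of 12 h and 0 h. *Mvd*, which decarboxylates mevalonate diphosphate, had a shallower minimum, at 60.4% of 0 h in *Nanog* KO cells and 63% in controls. *Idi1* isomerizes the resulting isoprene unit and had 129, 126 and 124 CPM at 0 h, 71, 65.1 and 64.8 CPM at 12 h and 122, 110.2 and 96.8 CPM at 24 h in *Nanog* KO libraries. Control libraries had 198 and 181 CPM at 0 h, 95.2, 98.2 and 93.2 CPM at 12 h and 122, 158 and 149 CPM at 24 h. *Fdps* joins these units to farnesyl diphosphate, a precursor of sterols and of protein prenyl groups. It had 216, 219.6 and 213 CPM at 0 h, 93.6, 89.7 and 95.3 CPM at 12 h and 149, 142 and 133 CPM at 24 h in *Nanog* KO libraries. Control libraries had 255 and 231 CPM at 0 h, 123, 123 and 116 CPM at 12 h and 170.2, 168 and 172 CPM at 24 h. Again no 12 h library reached a library of another time.

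The next enzymes commit farnesyl diphosphate to sterols. *Fdft1* (squalene synthase) stood at 48% of 0 h at 12 h in *Nanog* KO cells and 57.2% in controls, and *Lss* (lanosterol synthase) at 53.8% and 51.9%. *Sqle*, the squalene epoxidase, had 293, 288 and 299 CPM at 0 h, 165, 169 and 167 CPM at 12 h and 219.5, 209 and 204 CPM at 24 h in *Nanog* KO libraries. Control libraries had 227 and 215 CPM at 0 h, 121, 128 and 125 CPM at 12 h and 176, 164 and 157 CPM at 24 h. *Sqle* was higher in every *Nanog* KO library than in the control libraries of the same time. *Cyp51* removes a methyl group from lanosterol and had 121, 112 and 120.4 CPM at 0 h, 47.3, 49.9 and 47.2 CPM at 12 h and 96.8, 93.3 and 85.8 CPM at 24 h in *Nanog* KO libraries. Control libraries had 179 and 163 CPM at 0 h, 74.2, 77.4 and 72.6 CPM at 12 h and 102, 102 and 109 CPM at 24 h. *Msmo1*, the methylsterol oxidase that acts after it, had 131, 131 and 130.2 CPM at 0 h, 39.2, 39.7 and 36.8 CPM at 12 h and 71.2, 67 and 57.9 CPM at 24 h in *Nanog* KO libraries. Control libraries had 154 and 142 CPM at 0 h, 51.1, 56.5 and 56 CPM at 12 h and 66, 73.5 and 77.8 CPM at 24 h. Its 12 h means were 29.4% of 0 h in *Nanog* KO cells and 36.8% in controls, and it was still at 49.9% and 48.9% at 24 h. *Nsdhl*, a later dehydrogenase, stood at 53.4% and 59.1% of 0 h at 12 h. *Dhcr7*, the reductase of the last step to cholesterol, had 39.1, 40.4 and 40.5 CPM at 0 h, 15.2, 17.9 and 18.5 CPM at 12 h and 29.9, 31.7 and 24.3 CPM at 24 h in *Nanog* KO libraries. Control libraries had 57.5 and 65.9 CPM at 0 h, 27.3, 30.9 and 32.4 CPM at 12 h and 40.3, 40.5 and 40.0 CPM at 24 h.

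**Figure D1:**
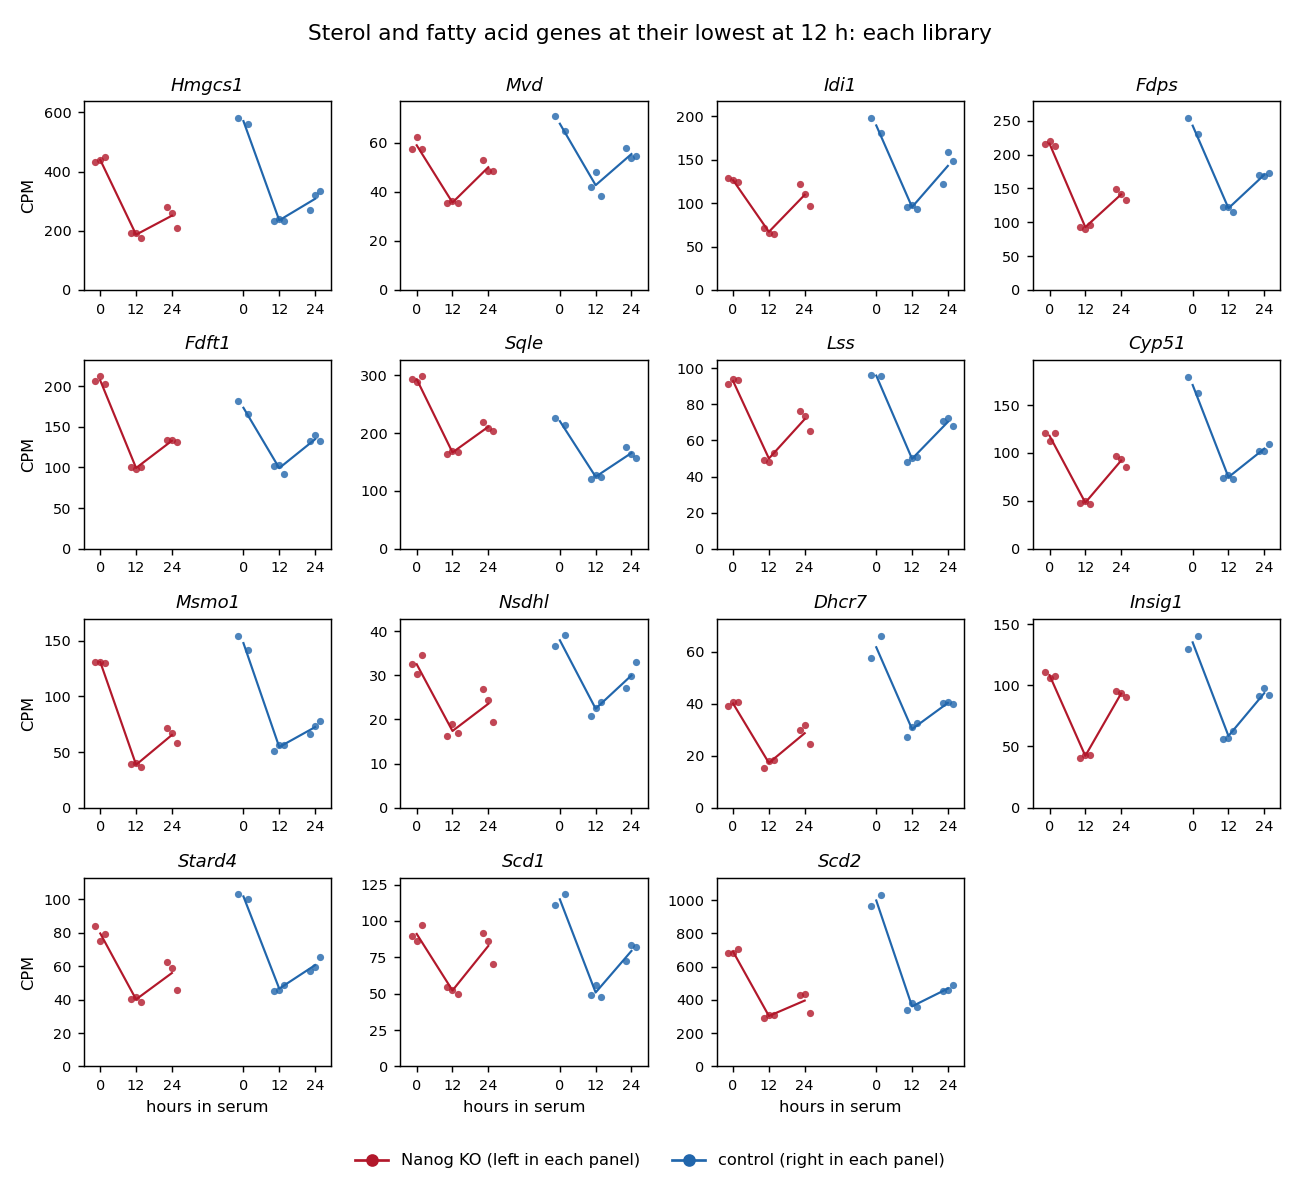
Normalized expression (CPM, vertical axes from 0) of 15 of the 16 sterol and fatty acid members at 0, 12 and 24 h in serum, with 1 point per library and lines through the group means, *Nanog* KO at the left of each panel and control at the right. In all 15 genes shown and both genotypes every 12 h point lies below every 0 h and 24 h point.

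*Insig1*, which retains SREBP in the endoplasmic reticulum, is itself a target of SREBP. It had the deepest minimum of the sterol group by the shallowest of its 4 differences (-0.67), with 111, 106 and 108 CPM at 0 h, 40.5, 43.1 and 43.3 CPM at 12 h and 95.6, 93.8 and 90.4 CPM at 24 h in *Nanog* KO libraries. Control libraries had 129.8 and 140.5 CPM at 0 h, 56.3, 57 and 62.5 CPM at 12 h and 91.5, 97.4 and 91.9 CPM at 24 h. In *Nanog* KO cells it returned to 86.1% of 0 h at 24 h, and in control cells to 69.3%. *Stard4* carries cholesterol between membranes and stood at 50.4% and 45.8% of 0 h at 12 h in *Nanog* KO and control cells. *Scd1* and *Scd2* are stearoyl-CoA desaturases, which make monounsaturated fatty acids. *Scd1* had 89.8, 86 and 97.3 CPM at 0 h, 54.4, 52.5 and 49.8 CPM at 12 h and 91.8, 86.6 and 70.1 CPM at 24 h in *Nanog* KO libraries. Control libraries had 111 and 119 CPM at 0 h, 48.8, 56.2 and 47.5 CPM at 12 h and 72.7, 83.4 and 82.1 CPM at 24 h. *Scd2* had 681, 684 and 706 CPM at 0 h, 292, 311 and 308 CPM at 12 h and 431, 434 and 323 CPM at 24 h in *Nanog* KO libraries. Control libraries had 964 and 1033 CPM at 0 h, 342, 384 and 359 CPM at 12 h and 454, 459 and 492 CPM at 24 h. *Scd1* regained most of its 0 h level in *Nanog* KO cells (90.9%), whereas *Scd2* reached 57.4% in *Nanog* KO and 46.9% in controls.

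The other 14 eligible genes of the list show where the pattern ended. Of these, 9 were also at least 0.25 lower at 12 h than at 0 h in both genotypes. As non-members, the 9 by the rule could not also be at least 0.25 below 24 h in both. *Acaca*, the acetyl-CoA carboxylase of fatty acid synthesis, met the 24 h side in both genotypes but not the 0 h side in either. Of the 9, 4 (with the late sterol enzymes *Sc5d* and *Hsd17b7* among them) missed the rule on the return in control cells alone. For *Sc5d* the 12 h value lay -0.38 from the 24 h value in *Nanog* KO cells and -0.21 from it in control cells. *Srebf2*, which encodes SREBP2, averaged 385, 187 and 205 CPM at 0, 12 and 24 h in *Nanog* KO cells, against 332, 216 and 222 CPM in control cells, and so fell without a comparable return. *Fasn*, the fatty acid synthase, did not fall at 12 h, with means of 270.3, 372 and 528 CPM in *Nanog* KO cells against 539, 563 and 592 CPM in control cells. *Tm7sf2*, a sterol reductase, and *Acat2*, which makes acetoacetyl-CoA for HMG-CoA synthesis, are members that the list did not hold. *Acat2* was at 75% of 0 h at 12 h in *Nanog* KO cells and 66.2% in controls, and *Tm7sf2* at 39.4% and 40.5%.

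**Figure D2:**
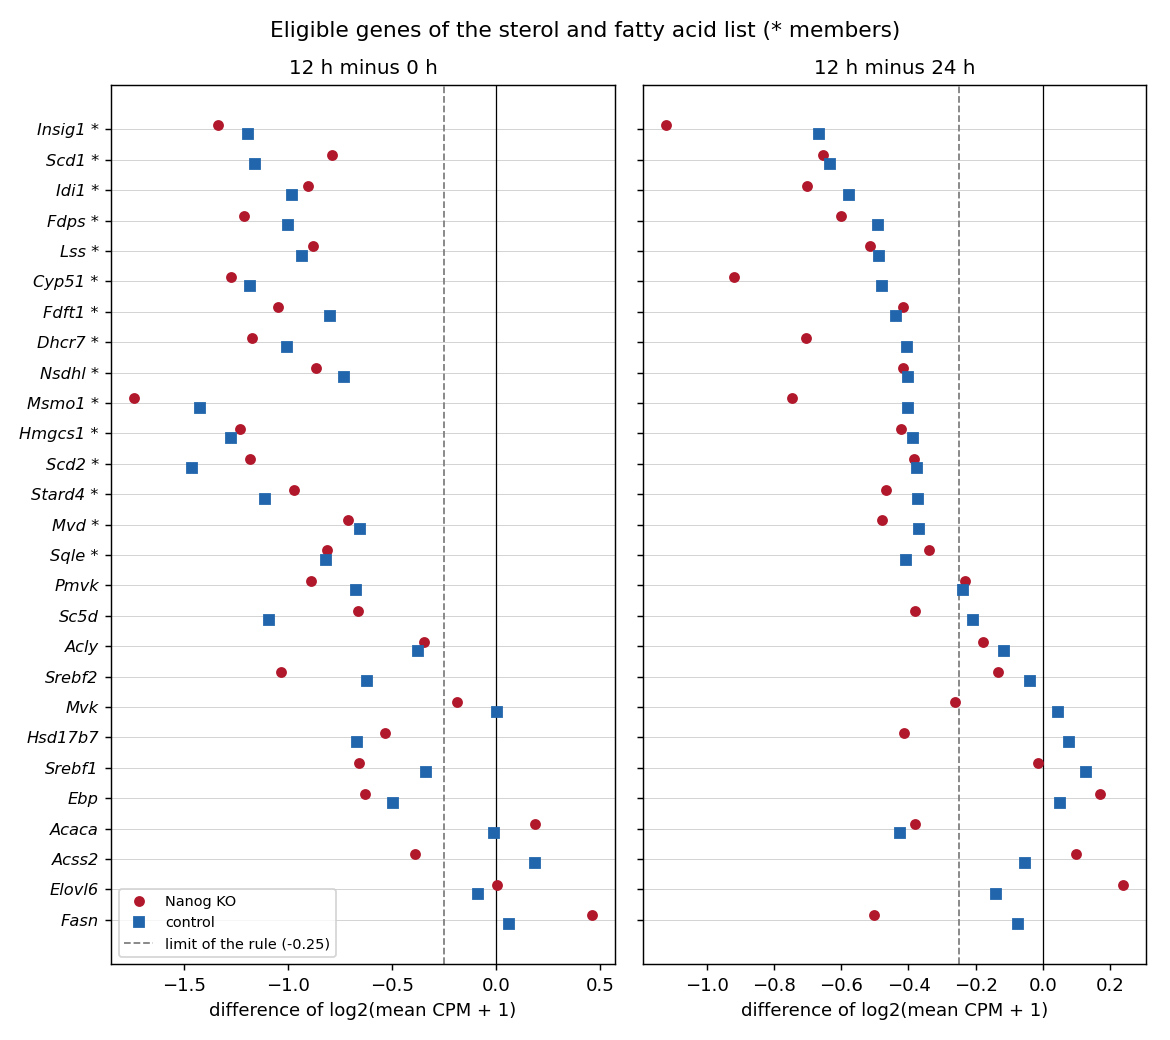
Difference of log2(mean CPM + 1) between 12 h and 0 h (left) and between 12 h and 24 h (right) for 27 of the 30 eligible genes of the sterol and fatty acid list, *Nanog* KO as circles and control as squares, members marked by an asterisk. The dashed line is the limit of -0.25, and all points of the 15 rows with an asterisk lie left of it in both panels.

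The sterol members also differed between genotypes, a contrast that the rule did not use. At 12 h 12 of the 16 were below control cells in *Nanog* KO cells and 1 lay above them (limma, adjusted p under 0.05), against 25.2% lower and 24.6% higher among the 15117 tested genes. At 0 h 11 were lower and 2 higher, against 26.9% and 25.4%, and at 24 h 8 were lower and 1 higher, against 24.5% and 23.4%. Over all 31 genes of the list, 19 were lower and 4 higher at 0 h, 23 lower and 2 higher at 12 h, and 16 lower and 1 higher at 24 h. The largest difference within the 16 was that of *Dhcr7* at 12 h, a log2 fold change of -0.78 ± 0.09 (SE, adjusted p = 1.0e-06). *Cyp51* had -0.62 ± 0.06 (SE, adjusted p = 2.9e-08) at 12 h and -0.18 ± 0.06 (SE, adjusted p = 0.011) at 24 h. *Idi1* differed by -0.51 ± 0.08 (SE, adjusted p = 5.9e-05) at 12 h, and *Sqle* went the other way with 0.42 ± 0.05 (SE, adjusted p = 7.1e-07). *Insig1* was lower in *Nanog* KO cells at 12 h, with -0.46 ± 0.05 (SE, adjusted p = 6.8e-07), whereas at 24 h the adjusted p was 0.95. *Lss* passed the test at no time. Of the 16, 7 were lower in *Nanog* KO cells at all 3 times, against 13.2% of all tested genes. The median log2 fold change of the 16 was -0.31 at 0 h, -0.34 at 12 h and -0.16 at 24 h, against -0.0085, -0.0020 and -0.013 over all 15117 tested genes.

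**Figure D3:**
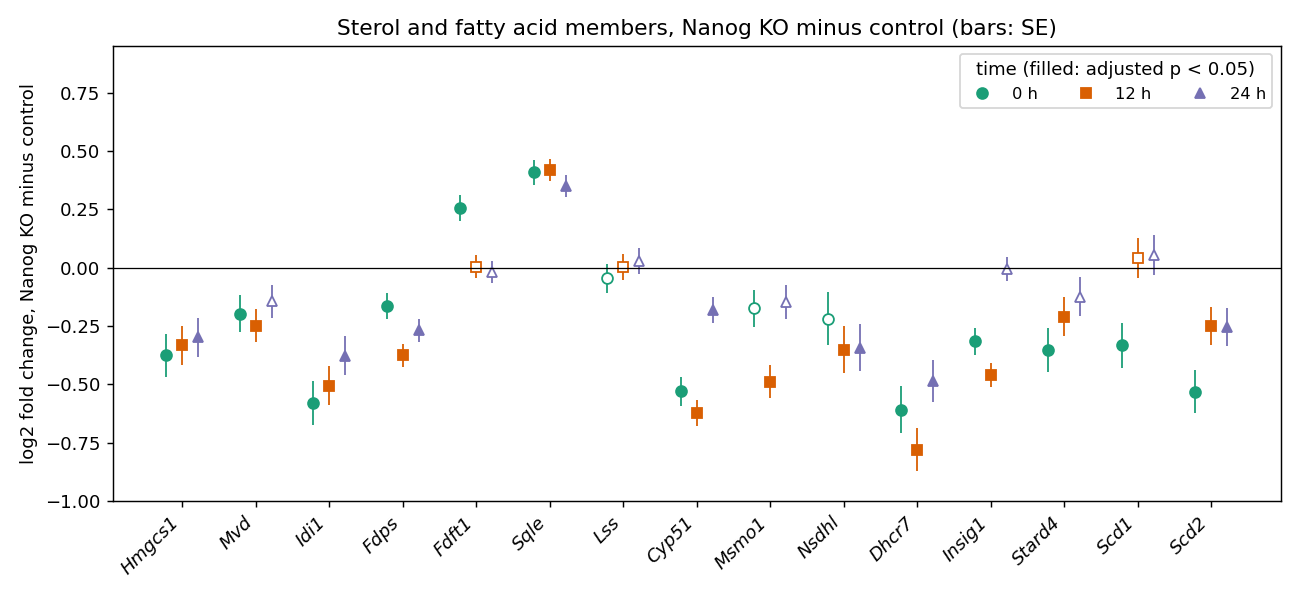
Log2 fold change of *Nanog* KO minus control cells (vertical axis, bars show the SE of the limma fit) for 15 of the 16 sterol and fatty acid members at 0 h (circles), 12 h (squares) and 24 h (triangles), filled where the adjusted p was under 0.05. Most points lie below 0, *Sqle* lies above 0 at all 3 times and *Lss* is open at all 3.

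At 24 h the sterol members were mostly still under their 0 h level. The 24 h value was below that of 0 h in 15 of the 16 in *Nanog* KO cells and in 16 of 16 in controls (limma, adjusted p under 0.05), against 29.5% and 28.7% of all tested genes. Of the whole list, 24 of 31 genes passed downward and 3 upward in *Nanog* KO cells, with 25 downward and 2 upward in controls. This contrast is the difference between the 2 quantities that the rule limited, so these counts describe the members and nothing further is read from them. *Msmo1* had a log2 fold change of -1.0 ± 0.07 (SE, adjusted p = 1.5e-09) in *Nanog* KO cells and -1.02 ± 0.08 (SE, adjusted p = 6.1e-09) in controls. *Scd2* changed by -0.81 ± 0.08 (SE, adjusted p = 1.5e-07) and -1.09 ± 0.09 (SE, adjusted p = 1.7e-08). *Scd1* was the exception in *Nanog* KO cells, with -0.14 ± 0.09 (SE, adjusted p = 0.17), and had -0.53 ± 0.10 (SE, adjusted p = 1.6e-04) in controls. The change over 24 h itself differed between genotypes in 4 of the 16, no larger a share than the 29.8% of all tested genes. At 24 h *Scd1*, *Cyp51* and *Insig1* stood closer to their 0 h level in *Nanog* KO than in control cells, by 0.39 ± 0.13, 0.35 ± 0.08 and 0.31 ± 0.08 (log2, SE, adjusted p = 0.032, 0.0038 and 0.0055), and *Fdft1* differed in the other direction, by -0.27 ± 0.07 (SE, adjusted p = 0.0087).

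Over all 137 members the minimum had a similar median depth in the genotypes. The 12 h value lay a median of -0.56 from the 0 h value in *Nanog* KO cells and -0.58 in controls, and -0.43 and -0.42 from the 24 h value. In 78 members the difference from 0 h was the larger in *Nanog* KO cells and in 59 it was the larger in control cells. Among the 10432 genes, 25.5% were at least 0.25 lower at 12 h than at 0 h in *Nanog* KO cells and 25.0% in controls, and 11.4% and 12.5% were at least 0.25 lower at 12 h than at 24 h. Every 12 h library was below every 0 h and 24 h library for 126 members in *Nanog* KO cells, for 120 in controls and for 117 in both, against 8.46%, 9.22% and 3.73% of the 10432 genes. As the rule used these values, nothing is read from that excess. At 12 h the members kept a median of 65.7% of their 0 h mean in *Nanog* KO cells and 66.0% in controls, and at 24 h 86.7% and 91.3%.

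**Figure D4:**
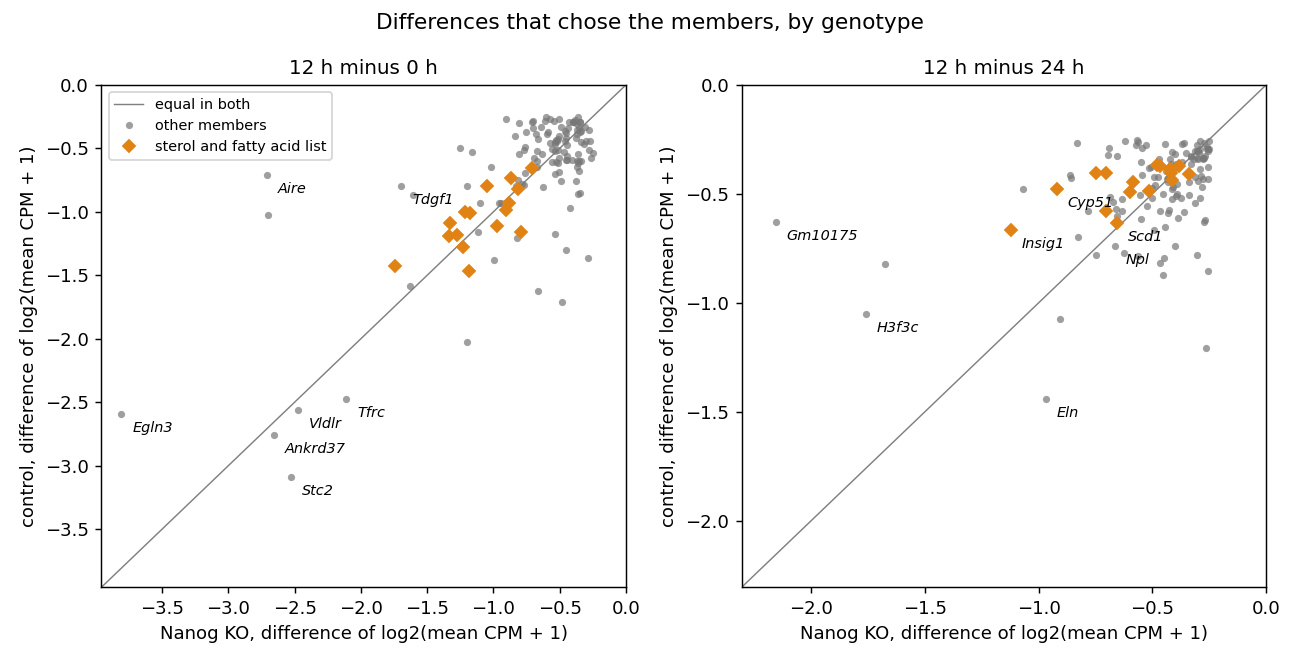
Difference of log2(mean CPM + 1) between 12 h and 0 h (left) and between 12 h and 24 h (right) for the 137 members, *Nanog* KO on the horizontal and control on the vertical axis, 1 point per gene, sterol and fatty acid members as diamonds and the line where both are equal. *Aire* and *Tdgf1* lie above the line at the left, with the larger 12 h difference from 0 h in *Nanog* KO cells, and *Egln3* is farthest from 0 on the horizontal axis.

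The return varied in extent, and 7 members were still under 50% of their 0 h mean at 24 h in both genotypes: *Egln3*, *Ankrd37*, *Vldlr*, *Stc2*, *Tfrc*, *Narf* and *Msmo1*. *Egln3* is a prolyl hydroxylase that marks the hypoxia-inducible factor HIF for degradation and is itself induced by it. It had 106, 101 and 94 CPM at 0 h, 6.59, 6.34 and 5.77 CPM at 12 h and 8.34, 12.5 and 9.86 CPM at 24 h in *Nanog* KO libraries. Control libraries had 49.1 and 50.2 CPM at 0 h, 7.94, 7.17 and 7.06 CPM at 12 h and 13.7, 10.5 and 10.3 CPM at 24 h. *Ankrd37*, another gene known to be induced by HIF, had 15.5, 14.2 and 12.1 CPM at 0 h, 1.32, 1.15 and 1.63 CPM at 12 h and 2.59, 2.63 and 2.28 CPM at 24 h in *Nanog* KO libraries. Control libraries had 19.5 and 19.2 CPM at 0 h, 1.99, 2.61 and 1.41 CPM at 12 h and 4.51, 3.84 and 4.15 CPM at 24 h. In both genes all 24 h libraries were above all 12 h libraries and far below those of 0 h. The lists place the 2 in glycolysis and hypoxia, where they are 6.06% of 33 eligible genes, against 1.31% over all eligible genes. Of the 33, 32 were at least 0.25 lower at 12 h than at 0 h in *Nanog* KO cells and 30 in controls. Over the 10432 genes these shares were 25.5% and 25.0%. Of the same 33, 5 and 6 were at least 0.25 lower at 12 h than at 24 h, against 11.4% and 12.5% of the 10432.

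*Tfrc*, the transferrin receptor that brings iron into cells, had 340.0, 342 and 364 CPM at 0 h, 83.7, 76.1 and 80.1 CPM at 12 h and 113, 106 and 98.8 CPM at 24 h in *Nanog* KO libraries. Control libraries had 479 and 517 CPM at 0 h, 95.5, 82.7 and 88.5 CPM at 12 h and 104, 115 and 113 CPM at 24 h. Its 12 h mean was 22.9% of 0 h in *Nanog* KO cells and 17.8% in controls. *Narf*, a nuclear protein that binds prelamin A, stood at 30.4% and 31.4% of 0 h at 12 h and at 37.2% and 49.7% at 24 h. *Stc2*, *Vldlr* and *Nupr1* are in the list of the integrated stress response, the programme run by ATF4. This list holds 3 members among 21 eligible genes (14.3%, against 1.31% over all eligible genes). Of the 21, 12 in *Nanog* KO cells and 14 in controls were at least 0.25 lower at 12 h than at 0 h. For 12 h against 24 h these counts were 5 and 7. Over the 10432 genes the shares were 25.5% and 25.0% for 0 h, and 11.4% and 12.5% for 24 h. *Stc2*, a secreted glycoprotein, had 29.9, 32.9 and 32.8 CPM at 0 h, 4.29, 5.34 and 4.47 CPM at 12 h and 8.03, 7.37 and 8.63 CPM at 24 h in *Nanog* KO libraries. Control libraries had 24.8 and 28.3 CPM at 0 h, 1.99, 3.02 and 1.74 CPM at 12 h and 4.01, 3.88 and 3.56 CPM at 24 h. *Vldlr*, a lipoprotein receptor, had 10.7, 10.8 and 9.5 CPM at 0 h, 0.83, 1.62 and 0.65 CPM at 12 h and 1.32, 1.51 and 1.61 CPM at 24 h in *Nanog* KO libraries. Control libraries had 12.1 and 16.9 CPM at 0 h, 1.05, 1.88 and 1.96 CPM at 12 h and 2.23, 2.17 and 3.12 CPM at 24 h. In *Nanog* KO cells its 12 h and 24 h libraries overlapped. *Nupr1*, a stress-induced chromatin protein, had 13, 14.5 and 12.6 CPM at 0 h, 5.61, 5.34 and 4.15 CPM at 12 h and 7.72, 9.01 and 8.82 CPM at 24 h in *Nanog* KO libraries. Control libraries had 5.79 and 4.51 CPM at 0 h, 2.89, 4.16 and 3.04 CPM at 12 h and 4.41, 4.55 and 4.44 CPM at 24 h. It was higher in *Nanog* KO cells at 0 h by a log2 fold change of 1.23 ± 0.14 (SE, adjusted p = 6.3e-07).

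The deepest member by the rule was *Eln*, which encodes elastin of the extracellular matrix. It had 4.53, 5.2 and 5.56 CPM at 0 h, 1.56, 1.78 and 1.63 CPM at 12 h and 5.62, 4.21 and 2.75 CPM at 24 h in *Nanog* KO libraries. Control libraries had 3.1 and 9.45 CPM at 0 h, 0.709, 0.571 and 1.09 CPM at 12 h and 1.57, 4.01 and 6.02 CPM at 24 h. The control libraries at 0 h and 24 h were spread widely, and no test of *Eln* between genotypes or between 24 h and 0 h passed the threshold. Fibroblast feeders were present at 0 h, and the summed level of 16 fibroblast markers, most of it from collagen genes, was lowest at 24 h. It was 1091 to 1223, 660 to 834 and 352 to 439 CPM at 0, 12 and 24 h in *Nanog* KO libraries, against 1298 to 1504, 1197 to 1298 and 746 to 868 CPM in control libraries. Of the single markers, 2 had their lowest mean at 12 h in *Nanog* KO cells (*Fbln1* and *Thy1*) and 4 in controls (these and *Col6a1* and *Col6a2*). None of the 16 is a member, and their part in the *Eln* values was not tested. In bulk RNA fewer cells of a type and less RNA per cell cannot be told apart. The ES cell markers were present throughout, with a summed level of 3599 to 4680 CPM in *Nanog* KO libraries against 3317 to 4540 CPM in control libraries. One of them, *Tdgf1*, is a member, and without it the sum was 3211 to 3815 CPM in *Nanog* KO libraries against 2986 to 4231 CPM in control libraries. In *Nanog* KO libraries primitive endoderm markers summed to 389 to 414 CPM at 0 h and 749 to 836 CPM at 24 h. In control libraries they summed to 67.9 to 80.5 CPM at 0 h and 53.6 to 64.9 CPM at 24 h. Their part in the genotype differences was not tested.

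Apart from sterol synthesis the members had varied known roles, and 109 were in none of the 53 gene lists. Groups of members by role were drawn up after the members had been seen and carry no test. Among them, 13 act in chromosome copying, pairing or division. *Top2a*, the topoisomerase that untangles replicated DNA, had 798, 798 and 811 CPM at 0 h, 522, 542 and 530.5 CPM at 12 h and 679.6, 681 and 573 CPM at 24 h in *Nanog* KO libraries. Control libraries had 728 and 729 CPM at 0 h, 554, 548 and 567 CPM at 12 h and 652, 740.0 and 721 CPM at 24 h. Its minimum was shallow, at 66.3% of 0 h in *Nanog* KO cells and 76.4% in controls. *Cenpw*, a histone-fold protein of the centromere, had 30.7, 29.6 and 31.2 CPM at 0 h, 21, 23.4 and 22.1 CPM at 12 h and 28.7, 27.4 and 37.1 CPM at 24 h in *Nanog* KO libraries. Control libraries had 27.6 and 25.5 CPM at 0 h, 20.7, 18.4 and 17.4 CPM at 12 h and 36.9, 34.1 and 30.9 CPM at 24 h. *Itgb3bp* encodes a further centromere protein. *G2e3*, a ubiquitin ligase, stood at 56.7% of 0 h at 12 h in *Nanog* KO cells and 68.1% in controls. *Ncapg* (a condensin subunit), *Rfc4* (a clamp loader subunit) and *Rpa3* (a subunit of the single-strand binding complex) were further members. *Syce2* and *Sycp3* encode proteins of the meiotic synaptonemal complex. At 12 h these 13 stood at 43.7% to 78.8% of 0 h in *Nanog* KO cells and at 37.9% to 82.1% in controls. The mitosis list held 1 member among 52 eligible genes and the DNA replication list 1 among 47, beside 1.31% over all eligible genes.

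A further 13 members encode mitochondrial proteins, a group also drawn up after the members had been seen. The list of the nuclear respiratory chain held 0 members among 37 eligible genes. That of mitochondrially encoded genes held 1 among 15, beside 1.31% over all eligible genes. *Timm8b*, an import chaperone of the space between the mitochondrial membranes, had 61.6, 58.2 and 53.8 CPM at 0 h, 39.4, 40.8 and 40.7 CPM at 12 h and 51.3, 49.5 and 62.6 CPM at 24 h in *Nanog* KO libraries. Control libraries had 48.6 and 43.4 CPM at 0 h, 30.3, 29.8 and 28.8 CPM at 12 h and 52, 43.9 and 37.9 CPM at 24 h. *Ndufb2* is a subunit of complex I, *Mrpl50* of the mitochondrial ribosome, and *Nnt* the transhydrogenase that makes NADPH. *mt-Co3*, a complex IV subunit read from the mitochondrial genome, had 458, 701 and 566 CPM at 0 h, 369.6, 422 and 542 CPM at 12 h and 1063, 764 and 972 CPM at 24 h in *Nanog* KO libraries. Control libraries had 667 and 712 CPM at 0 h, 420.3, 292 and 652 CPM at 12 h and 551, 522 and 831 CPM at 24 h. Its replicates were spread widely. The 12 h libraries overlapped those of 0 h in *Nanog* KO cells and those of 24 h in control cells. The summed level of the mitochondrial genes did not have a minimum at 12 h, at 14698 to 19484, 19357 to 20407 and 23418 to 32096 CPM at 0, 12 and 24 h in *Nanog* KO libraries, against 14633 to 14806, 16972 to 18771 and 20629 to 22672 CPM in control libraries. The other groups were 8 members that bind or process RNA, such as *Fubp1*, *Pabpc4* and *Hnrnph3*, and 7 that act on membrane lipids, such as the flippases *Atp8a1* and *Atp11b*. The list of splicing factors held 0 members among 46 eligible genes, and that of translation initiation and elongation 0 among 28.

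Between genotypes the 137 members split about evenly. At 0 h 37 were higher in *Nanog* KO than in control cells and 36 lower (limma on log2(CPM + 1), adjusted p under 0.05), against 25.4% higher and 26.9% lower among the 15117 tested genes. At 12 h 35 were higher and 42 lower, against 24.6% and 25.2%, and at 24 h 35 were higher and 38 lower, against 23.4% and 24.5%. As shares of the members these are 27.0% and 26.3%, 25.5% and 30.7%, and 25.5% and 27.7%, where the 30.7% lower at 12 h lay farthest from the share over all tested genes. At 12 h 12 of the 16 members in the sterol and fatty acid list were lower. Of the 121 members outside that list, 30 were lower and 34 higher at 12 h. Of the members 23 were higher at all 3 times (16.8%, against 12.8% of all tested genes), 19 were lower at all 3 (13.9% against 13.2%) and 34 passed at no time (24.8% against 26.6%). All 137 had passed the filter for testing, at least 1 CPM in at least 3 libraries.

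*Npl*, an enzyme that breaks down sialic acid, was higher in *Nanog* KO cells throughout. It had 31.1, 34.4 and 29.8 CPM at 0 h, 23.6, 23.3 and 22 CPM at 12 h and 35.6, 35.4 and 39.9 CPM at 24 h in *Nanog* KO libraries. Control libraries had 8.13 and 7.42 CPM at 0 h, 5.22, 4.57 and 4.67 CPM at 12 h and 9.48, 8.48 and 8.18 CPM at 24 h. No library of a genotype reached one of the other, and the log2 fold change was 1.90 ± 0.09 (SE, adjusted p = 6.7e-12) at 0 h, 2.04 ± 0.08 (SE, adjusted p = 8.4e-13) at 12 h and 1.97 ± 0.08 (SE, adjusted p = 1.1e-12) at 24 h. *Prph*, the neuronal intermediate filament peripherin, was higher by 1.66 ± 0.12 (SE, adjusted p = 1.7e-09) at 12 h, and *Sord*, sorbitol dehydrogenase, by 1.12 ± 0.05 (SE, adjusted p = 7.6e-12) at 24 h. *Sycp3* was higher by 1.11 ± 0.13 (SE, adjusted p = 7.2e-07) at 0 h and by 1.68 ± 0.11 (SE, adjusted p = 9.8e-10) at 24 h.

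Lower in *Nanog* KO cells were *Gli1*, *St6gal1*, *Nt5dc2*, *Tm7sf2* and *Ap1s2*. *Gli1*, a transcription factor and target of Hedgehog signalling, had 6.2, 5.15 and 5.95 CPM at 0 h, 3.12, 4.45 and 6.18 CPM at 12 h and 9.0, 7.3 and 10.5 CPM at 24 h in *Nanog* KO libraries. Control libraries had 19 and 22.9 CPM at 0 h, 13.4, 17.7 and 12 CPM at 12 h and 19.7, 16.5 and 16.1 CPM at 24 h. The genotypes did not overlap at any time. The 12 h libraries overlapped those of 0 h in *Nanog* KO cells and those of 24 h in control cells. Its log2 fold change was -1.69 ± 0.19 (SE, adjusted p = 6.5e-07) at 0 h and -0.90 ± 0.17 (SE, adjusted p = 3.0e-04) at 24 h. *St6gal1*, which adds sialic acid to glycoproteins, differed by -1.02 ± 0.11 (SE, adjusted p = 3.5e-07) at 0 h and -0.92 ± 0.10 (SE, adjusted p = 4.3e-07) at 24 h, and *Nt5dc2* by -1.05 ± 0.08 (SE, adjusted p = 3.9e-09) at 12 h. At 24 h *Ap1s2*, a subunit of a clathrin adaptor, differed by -0.70 ± 0.10 (SE, adjusted p = 8.1e-06) and *Tm7sf2* by -0.79 ± 0.14 (SE, adjusted p = 1.7e-04).

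Compared with 0 h, more members were lower than higher at 24 h. In *Nanog* KO cells 61 were lower and 13 higher, against 29.5% and 28.8% of the tested genes. In control cells 49 were lower and 11 higher, against 28.7% and 26.1%. As this contrast is the difference between the 2 quantities that the rule limited, nothing is read from the excess. The count of 11 was 3 without control replicate 3 at 0 h and 7 without control replicate 2 or replicate 3 at 24 h. In both genotypes 34 members were lower and 3 higher, against 17.8% and 16.2% of all tested genes, and 5 were lower in one and higher in the other, against 3.97%. The largest falls were those of *Egln3*, with a log2 fold change of -3.19 ± 0.12 (SE, adjusted p = 1.2e-13) in *Nanog* KO cells and -2.03 ± 0.13 (SE, adjusted p = 3.9e-10) in controls, and of *Stc2*, *Tfrc* and *Vldlr* in control cells, with -2.52 ± 0.14, -2.16 ± 0.07 and -2.14 ± 0.20 (SE, adjusted p = 4.9e-11, 3.3e-14 and 6.3e-08). *Aire*, *Vldlr* and *Ankrd37* followed in *Nanog* KO cells, with -2.40 ± 0.11, -2.19 ± 0.18 and -2.09 ± 0.14 (SE, adjusted p = 1.6e-12, 8.6e-09 and 3.7e-10).

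Few members were higher at 24 h than at 0 h. Among the named ones in *Nanog* KO cells *Nop10*, a core protein of the box H/ACA ribonucleoproteins, was higher at 24 h than at 0 h by 0.40 ± 0.06 (SE, adjusted p = 2.4e-05) and *Smarca1*, a chromatin remodelling ATPase, by 0.44 ± 0.11 (SE, adjusted p = 0.0016). *Gli1* was higher by 0.55 ± 0.17 (SE, adjusted p = 0.012), a call lost without *Nanog* KO replicate 3 at 24 h, where the value was 0.43. *mt-Co3* was higher by 0.71 ± 0.23 (SE, adjusted p = 0.014), a call lost without *Nanog* KO replicate 1 at 0 h (0.55) or replicate 1 at 24 h (0.60) and in limma's robust fit. In control cells *Mcts2*, *Cenpw*, *Larp1b* and *Pcyt1b* were higher by 0.36 ± 0.09, 0.34 ± 0.11, 0.27 ± 0.11 and 0.26 ± 0.08 (SE, adjusted p = 0.0026, 0.012, 0.045 and 0.014). All 4 calls were lost without control replicate 3 at 0 h, where the values were 0.26, 0.29, 0.14 and 0.17. *Larp1b* also lost its call without any of 8 other libraries, with only the compared groups fitted, with a replicate block and in DESeq2. *Pcyt1b* lost its call without control replicate 3 at 24 h (0.20) and with only the compared groups fitted.

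The change over 24 h differed between genotypes in 44 members, being greater (more positive) in *Nanog* KO cells in 22 and smaller in 22, against 15.5% and 14.3% of the tested genes. The rule limited the parts of this change in both genotypes, and nothing is read from the shares. The 22 with the smaller value were 14 without control replicate 3 at 0 h. *Aire*, the autoimmune regulator that drives tissue-restricted genes in the thymus, had 92.3, 102 and 111 CPM at 0 h, 13.7, 14.2 and 16.3 CPM at 12 h and 16.7, 20.7 and 17.9 CPM at 24 h in *Nanog* KO libraries. Control libraries had 14 and 16.7 CPM at 0 h, 8.96, 8.4 and 9.56 CPM at 12 h and 18.6, 15.6 and 14.2 CPM at 24 h. At 0 h it was higher in *Nanog* KO cells by 2.65 ± 0.12 (SE, adjusted p = 2.5e-12), and at 24 h the genotypes overlapped with a difference of 0.19 ± 0.11 (SE, adjusted p = 0.16). The difference in its 24 h change was -2.47 ± 0.16 (SE, adjusted p = 4.6e-09). *Tdgf1*, the Nodal co-receptor Cripto and a marker of pluripotent cells, had 902, 909.7 and 916 CPM at 0 h, 265, 292 and 283 CPM at 12 h and 367, 388 and 353 CPM at 24 h in *Nanog* KO libraries. Control libraries had 349.9 and 331 CPM at 0 h, 197, 196 and 193 CPM at 12 h and 309, 346 and 324 CPM at 24 h. At 24 h it stood at 40.6% of 0 h in *Nanog* KO cells and 95.9% in controls, and its 24 h change differed by -1.24 ± 0.07 (SE, adjusted p = 2.2e-09). *Egln3* and *Spidr*, a scaffold of recombination repair, differed likewise, by -1.16 ± 0.17 and -0.81 ± 0.10 (SE, adjusted p = 6.6e-05 and 1.1e-05).

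In the opposite direction were *Rian*, *Smarca1*, *Plac8* and *Dnah8*. *Rian*, a long noncoding RNA expressed from the maternal allele of the *Dlk1*-*Dio3* imprinted region, had 259, 249.9 and 263 CPM at 0 h, 221, 212 and 200.1 CPM at 12 h and 326, 291 and 314 CPM at 24 h in *Nanog* KO libraries. Control libraries had 245 and 239 CPM at 0 h, 93.9, 93.8 and 93.4 CPM at 12 h and 131, 149 and 152 CPM at 24 h. At 0 h the genotypes differed by 0.09 ± 0.06 (SE, adjusted p = 0.27), and at 12 h and 24 h *Rian* was higher in *Nanog* KO cells by 1.16 ± 0.06 (SE, adjusted p = 9.7e-12) and 1.10 ± 0.06 (SE, adjusted p = 1.7e-11). Its 24 h change differed by 1.02 ± 0.08 (SE, adjusted p = 1.0e-07). *Dnah8*, an axonemal dynein heavy chain, had 24.4, 21.6 and 25.4 CPM at 0 h, 18.8, 15.2 and 17.2 CPM at 12 h and 27.2, 21.2 and 21.1 CPM at 24 h in *Nanog* KO libraries. Control libraries had 33 and 31.6 CPM at 0 h, 12.9, 12.5 and 12.3 CPM at 12 h and 14.9, 16.4 and 18.1 CPM at 24 h. Its 24 h change differed by 0.89 ± 0.15 (SE, adjusted p = 2.0e-04). *Smarca1* had 6.09, 5.79 and 7.31 CPM at 0 h, 4.44, 4.66 and 4.47 CPM at 12 h and 9.52, 9.34 and 8.25 CPM at 24 h in *Nanog* KO libraries. Control libraries had 16.4 and 15.2 CPM at 0 h, 6.5, 7.83 and 8.47 CPM at 12 h and 9.43, 11.3 and 10.6 CPM at 24 h. The *Nanog* KO libraries were the lower ones at 0 h, and the 24 h change differed by 1.0 ± 0.16 (SE, adjusted p = 1.3e-04). *Plac8*, a small cysteine-rich protein, differed in change by 0.99 ± 0.19 (SE, adjusted p = 6.8e-04). *Plac8* was also lower in *Nanog* KO cells at 0 h, with a log2 fold change of -1.11 ± 0.14 (SE, adjusted p = 2.5e-06).

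**Figure D5:**
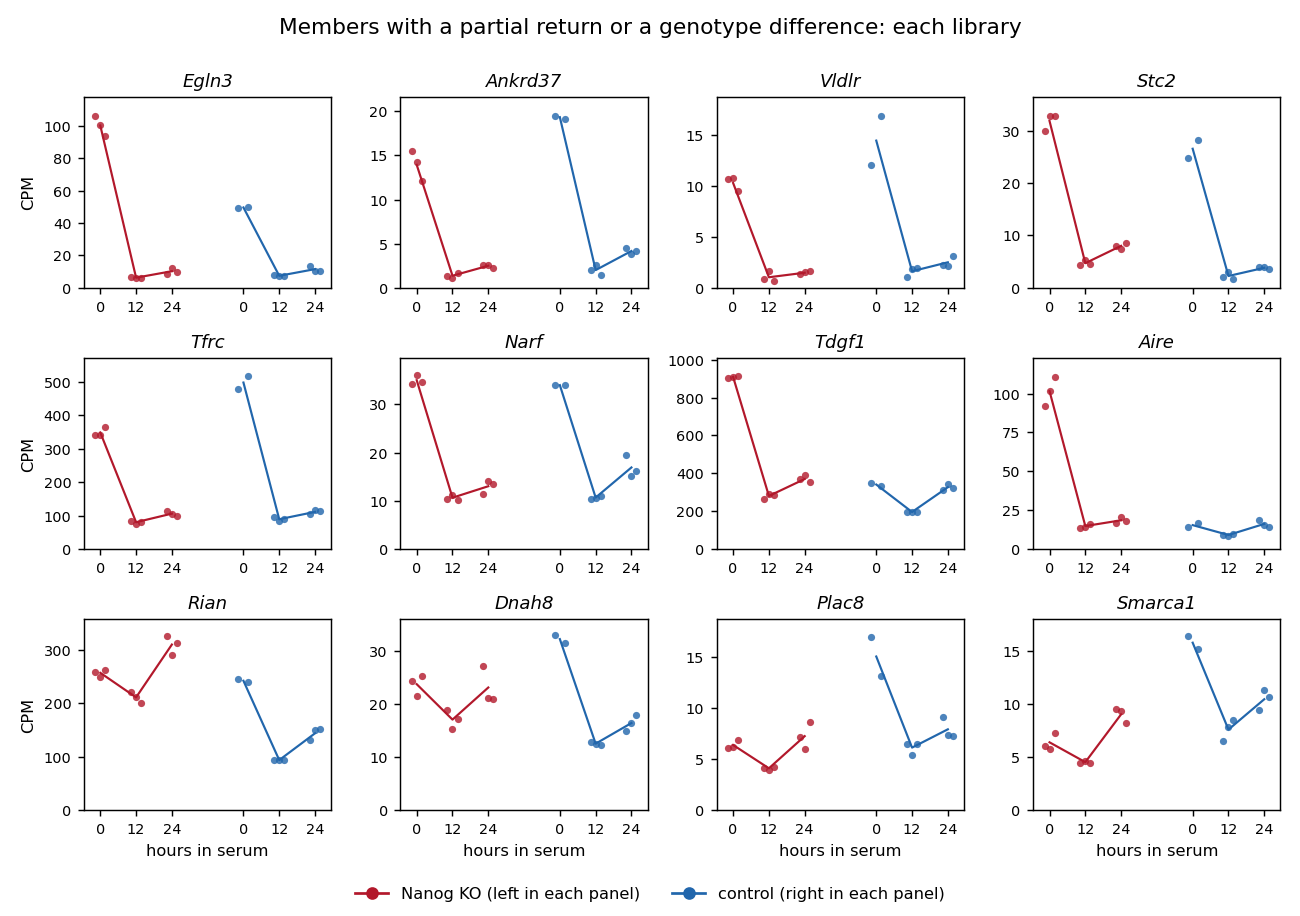
Normalized expression (CPM, vertical axes from 0) of 12 members at 0, 12 and 24 h in serum, 1 point per library and lines through the group means, *Nanog* KO at the left of each panel and control at the right. The members in the first 6 panels stay under 50% of their 0 h mean at 24 h in both genotypes, and those in the last 6 differ between genotypes in their change over 24 h. Of the first 6, *Egln3*, *Stc2*, *Tfrc* and *Narf* differ in this change as well (limma, adjusted p under 0.05). Their differences, *Nanog* KO minus control, are -1.16, 0.65, 0.44 and -0.39 (log2).

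Some features that the rule did not use were also compared. Positions in GENCODE M21 on GRCm38 were found for 135 members, on every chromosome. Of the 135, 9 are annotated as pseudogenes (6.67%), against 1.92% of the eligible genes with a position, and 121 as protein coding. Reads of such copies, among them *H3f3c*, which is annotated as a processed pseudogene, cannot be assigned with certainty, nor can those of the 32 members that overlap a measured gene on the other strand (*Cyp51*, *Fdft1*, *Mvd*, *Ankrd37*, *Aire*, *Gli1*, *Dnah8*, *Spidr*, *Sycp3* and *Timm8b* among them) or the 7 that overlap one on the same strand (such as *Tm7sf2*, *mt-Co3*, *Mcts2* and *Rian*), since no source states that strand was used. The median gene span of the members was 16.7 kb against 23.9 kb over the eligible genes, the median length of the longest transcript 3.02 kb against 3.45 kb, and the median GC content of that transcript 46.3% against 49.7%. These are descriptions without a test.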

How the data were processed

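RNA-seq libraries of *Nanog* KO and control ES cells at 0, 12 and 24 h were analysed, 17 in all. The authors trimmed reads with cutadapt 1.3, quantified genes with RSEM (1.2.3 in the submitters' processing notes) on GRCm38 and scaled counts by TMM with edgeR. The deposited values are a signal in CPM, and 100% of them were whole multiples of 1 read, to a tolerance of 0.001 reads, which gave each library's depth (8775372 to 33766086 reads). The study's batch correction was not repeated here.

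Testing covered the 15117 genes that reached 1 CPM in 3 or more libraries, on log2(CPM + 1), which understates the change of low genes, with limma 3.58.1 in R 4.3.3 (variance trend, all libraries in 1 fit, two-sided, Benjamini-Hochberg over all genes, call at an adjusted p under 0.05). The 12 h differences were used by the rule and not tested. Alternatives were other limits, scalings, filters, variance models, a replicate block, edgeR 4.0.16 and DESeq2 1.42.0 on recovered reads, and each library left out. The tests were checked on simulated data. The members and lists were chosen with earlier results of these data known. Named are the 24 members with the deepest minima, up to 4 per list, up to 4 in each direction per comparison, the 4 highest at 0 h and those at the edge of the rule. A few genes of the lists and the rule are not reported here by name. Others are named after their values were seen.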

Additional observations from a re-analysis of the deposited data

Results flagged for a closer look

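In 44 members the change between 0 and 24 h differed between the genotypes by the test of the difference itself (limma, adjusted p under 0.05). These are 32.1% of the members, close to the 29.8% of all tested genes. Of the members named for it, *Rian* had a difference of 1.02 ± 0.08 (log2, SE, *Nanog* KO minus control), *Smarca1* of 1.0 ± 0.16, *Plac8* of 0.99 ± 0.19 and *Dnah8* of 0.89 ± 0.15. For *Aire* it was -2.47 ± 0.16, for *Tdgf1* -1.24 ± 0.07, for *Egln3* -1.16 ± 0.17 and for *Spidr* -0.81 ± 0.10. At 0 h the genotypes already differed for all of these but *Rian*, with log2 fold changes of 2.65 ± 0.12 for *Aire*, 1.42 ± 0.06 for *Tdgf1*, 1.0 ± 0.13 for *Egln3*, 0.49 ± 0.08 for *Spidr*, -1.19 ± 0.12 for *Smarca1*, -1.11 ± 0.14 for *Plac8* and -0.43 ± 0.11 for *Dnah8*. That of *Rian* was 0.09 ± 0.06 (adjusted p = 0.27).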

How the results depend on the processing

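The number of members was 137 and ranged over 98 (plain totals in place of the deposited scaling) to 188 (no minimum at 0 h) under the alternative settings of the rule, and was 16 with a difference of 0.5 required in place of 0.25. Leaving out 1 library at a time gave 123 to 148 members, and 63 genes were members in all 17 such sets. *Gli1* was a member in 12 of them, *Vldlr*, *Narf* and *mt-Co3* in 14, *Eln*, *Plac8* and *Spidr* in 15, and *Aire* and *Rian* in 16. The count of members higher at 24 h than at 0 h in control cells was 5 when only the compared groups were fitted, and 3 to 12 when 1 library was left out. That of members with a smaller 24 h change in *Nanog* KO cells was 14 to 23. The other counts over all 137 members in single comparisons stayed within 1.5 times of their value under all settings, edgeR and DESeq2 on recovered reads included. Counts within the sterol and fatty acid list, and joint counts over several comparisons, are not among these. For 48 tests, those of the members named for the largest changes in a comparison, the calls were also followed. Of these, 42 kept their call throughout, 6 lost it in 21 of the 1342 alternative fits in all, and none changed sign. From the sterol and fatty acid list only *Dhcr7* at 12 h is among the 48. The deviations of same-numbered libraries from their group means had correlations of -0.19 to 0.10 between groups. Those of differently numbered libraries were -0.19 to 0.25. With so few libraries in a group, these values cannot exclude pairing or an unlabelled batch. With a replicate block 60 members were lower and 12 higher at 24 h than at 0 h in *Nanog* KO cells. In control cells these counts were 48 and 8. Precision was limited by the 2 control libraries at 0 h and, for members near 1 CPM, by depth.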

Other observations

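The 5 genes left out by name had the same shape. *Slc16a3*, a lactate transporter, had a shallowest difference of -1.53, which is deeper than that of any member (*Eln*, -0.97). *Slc25a1*, the mitochondrial citrate carrier that supplies acetyl units for lipid synthesis, had -0.30, as had *Rps6ka6*, a kinase. *Rpl39-ps* and *Rpl36al* had -0.37 and -0.26. These values are descriptions and were not tested.

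In a list of 15 genes encoded in mitochondria, all eligible, 15 were at least 0.25 lower at 12 h than at 24 h in *Nanog* KO cells and 10 in controls, but 1 of 15 was at least 0.25 lower at 12 h than at 0 h in each genotype. *mt-Co3* was the only member among them. Over the 10432 eligible genes, 11.4% in *Nanog* KO cells and 12.5% in controls were at least 0.25 lower at 12 h than at 24 h. For 12 h against 0 h the shares were 25.5% and 25.0%.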
